A study of Arabidopsis thaliana with 24 samples.

Results

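The effect of the phr1 mutation on Pi-starved Arabidopsis was compared between roots and shoots. The value read for each probe set was the phr1 minus wild type (WT) difference in roots minus the same difference in shoots, here called the interaction, over 12 of the 24 arrays of the series. The 4 groups were shoots and roots of WT and of phr1 plants grown for 7 days on solid Johnson medium with 2% sucrose and no Pi, with 3 arrays each. All plants were in the Columbia (Col-0) background per the study's methods, and the labels call phr1 a mutant without naming an allele. The 12 other arrays, of WT plants grown with 2 mM Pi (+Pi) and of plants labelled phr1 phl1 without Pi (−Pi), enter no mean of the interaction. They give values set beside it. They also enter the shared estimate of spread behind all standard errors (SE), p-values and calls. Per the study, RNA was taken separately from shoots and roots in 3 independent replicates, collected over 2 months, and hybridised to the Affymetrix ATH1 array. The labels do not say whether root and shoot arrays of the same number came from the same plants, and the fit treats them as independent. The p-values measure the spread between arrays of the same group. An interaction above 0 stands for a gene that was lower in phr1 shoots or higher in phr1 roots than in the other organ, relative to WT. A probe set was called when the interaction was more than 2-fold in size (over 1 on the log2 scale) with an adjusted p under 0.05 from limma. By this rule 2582 of 22746 probe sets (11.4%) responded differently to phr1 in the 2 organs, 1406 with an interaction above 0 (6.18%) and 1176 below 0 (5.17%). A fit of the 12 compared arrays alone called 2500.

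Phosphate starvation makes Arabidopsis express transporters that take up and move Pi, phosphatases and nucleases that release it from organic compounds, and enzymes that replace membrane phospholipids with lipids that hold no phosphorus. Leaves of starved plants also store starch and anthocyanins. PHR1 is a MYB-CC transcription factor that binds the P1BS motif in promoters of starvation-induced genes, PHL1 is a close relative with a similar DNA-binding domain, and SPX proteins hold PHR1 back when Pi is ample. Roots take up Pi from the medium and load it into the xylem, which carries it to the shoot.

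No probe set was matched to PHR1, so that the mutated gene was not checked. PHL1, which phr1 plants carry intact, had a signal between 4.34 and 5.83 (log2, RMA) in all 12 arrays. In the arrays labelled phr1 phl1 its signal was higher, 7.64, 8.36 and 7.06 in shoots and 8.55, 9.31 and 9.18 in roots, with differences from WT of 2.72 and 3.51. Per the study phl1 is a T-DNA insertion line. The paper places the insertion in the coding region and examined PHL1 expression in phl1 plants by RT-PCR with primers on either side of it. Where the probes lie relative to the insertion was not examined here. This signal therefore neither bears out the label nor settles it, and directions from these arrays are given under their label. The arrays of roots correlated with others of their group at 0.988 to 0.994 on average and those of shoots at 0.968 to 0.982, and the lowest values in shoots were those of the arrays numbered 2 of both genotypes. Organ labels were checked with marker lists. The summed signal of 8 light reaction genes (log2 of the sum) was 14.95 to 14.99 in WT shoots and 14.77 to 14.82 in phr1 shoots, without overlap, and 9.04 to 9.41 in WT roots and 9.32 to 9.67 in phr1 roots, with overlap. The 3 measured leaf epidermis markers SPCH, MUTE and FAMA summed to 5.88 to 6.18 in WT shoots and 5.98 to 6.58 in phr1 shoots, with overlap. In roots they summed to 4.91 to 5.17 in WT and 4.84 to 4.92 in phr1. The 2 measured root markers WER and PYK10 summed to 12.54 to 12.81 in WT roots and 12.82 to 13.03 in phr1 roots. In the shoot arrays compared they summed to 11.2 to 12.1. Singly, PYK10 differed between phr1 and WT roots by 0.25 and WER by −0.23, neither passing the test. The part of these differences in the results was not tested. In RNA from whole organs fewer cells of a type and less RNA per cell cannot be told apart.

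Most of the called probe sets had the larger effect of phr1 in shoots. Called probe sets were put in classes by the organ in which the phr1 minus WT difference was larger and by its sign there: 1204 were lower in phr1 shoots (5.29% of those tested), 1115 higher in phr1 shoots (4.90%), 61 lower in phr1 roots (0.268%) and 202 higher in phr1 roots (0.888%). The classes are named by the sign of the larger difference, which passed the threshold on its own in shoots for 1016 of those lower and 986 of those higher there, and in roots for 44 and 143. The shares of the classes are the background for the counts of genes given below. Without the limit on fold, 4471 probe sets (19.7%) passed on adjusted p alone. By the same threshold within an organ, 1475 probe sets (6.48%) were higher and 1509 (6.63%) lower in phr1 than in WT shoots, and 339 (1.49%) higher and 209 (0.919%) lower in phr1 than in WT roots. In the first class the median phr1 minus WT difference was −1.54 in shoots and −0.01 in roots, and in the second 1.43 and −0.01. In the root classes it was −1.39 in roots and 0.02 in shoots for lower genes, and 1.35 and −0.15 for higher genes. The interaction was more than 4-fold for 540 called probe sets (2.37%) and more than 16-fold for 43 (0.189%), of which 37 were lower in phr1 shoots, 3 higher in phr1 shoots and 3 higher in phr1 roots. Of the 2582, 1399 were matched to 1 gene and can be named, and the highest and lowest interactions (6.81 and −6.16) belonged to probe sets without a name here.

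**Figure D1:**
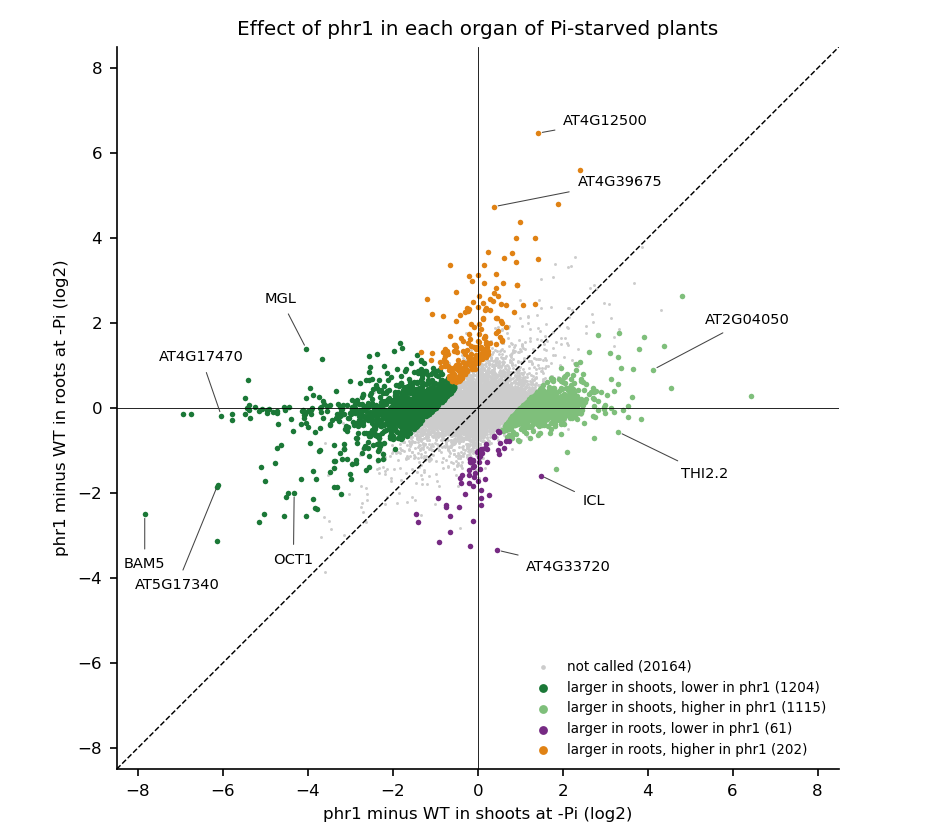
Each point is a probe set, with the phr1 minus WT difference at −Pi in shoots on the x axis and in roots on the y axis (both log2, means of 3 arrays). The dashed line marks equal effects, colours mark the 4 classes of called probe sets (1204, 1115, 61 and 202) and grey points were not called; most coloured points spread along the shoot axis near 0 in roots, and BAM5, AT5G17340 and OCT1 lie well below 0 in both organs.

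The named genes with the largest interactions among those lower in phr1 shoots had a high signal in WT shoots and a low one in the other groups. AT4G17470, of the palmitoyl protein thioesterase family, had signals (log2) of 10.58, 9.06 and 10.53 in WT shoots and 3.71, 4.54 and 3.79 in phr1 shoots. In roots it was at 3.45, 3.29 and 3.41 in WT and 3.24, 3.14 and 3.24 in phr1. The groups of shoots were far apart and the root values were under the shoot values of either genotype, which gives an interaction of 5.86 (SE 0.567, adjusted p = 5.76e-07). AT1G54020, a GDSL-type lipase, fell from 8.78, 8.63 and 9.0 in WT shoots to 3.10, 3.18 and 2.79 in phr1 shoots, and its 6 root values lay between 3.21 and 3.74, for an interaction of 5.51 (SE 0.276, adjusted p = 8.52e-11). AT4G02360, which encodes a DUF538 protein, had 9.10, 9.18 and 9.37 in WT shoots, 3.59, 4.35 and 3.56 in phr1 shoots and 3.78 to 4.16 in roots (interaction 5.45). AT1G52000, a jacalin-type lectin, had 10.23, 8.81 and 10.35 in WT shoots, 4.77, 4.39 and 3.97 in phr1 shoots and 3.31 to 3.82 in roots (interaction 5.42). For these 4 genes the root difference between phr1 and WT was at most 0.27 in size, with adjusted p of 0.62 or more. Over the whole class, 109 of 1204 probe sets (9.05%) had mean signals within the lowest 25% of WT roots (under 3.59) in both WT and phr1 roots, against 24.1% of all probe sets. The median root signal of the class was 6.75 in WT and 6.81 in phr1, so the very low root signals of these 4 genes were not typical of it.

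Most measured anthocyanin genes were lower in phr1 shoots. The list for flavonoids and anthocyanins held 27 genes, of which 10 were measured. Of these 10, 9 were called with an interaction above 0, against 6.18% of all probe sets. The median was 3.32 (−0.05 over all probe sets). All 9 were lower in phr1 shoots by the same threshold while none was called in roots. With the 40% dimmest probe sets left out, which removes some of these genes from the test, 5 were called. DFR, dihydroflavonol reductase, had signals of 10.32, 9.70 and 10.38 in WT shoots, 4.25, 5.41 and 4.62 in phr1 shoots and between 3.04 and 3.22 in all root arrays (interaction 5.32, SE 0.650, adjusted p = 8.57e-06). AT4G14090 (UGT75C1), the anthocyanin 5-O-glucosyltransferase, had 9.29, 9.30 and 9.74 in WT shoots, 3.66, 4.56 and 3.68 in phr1 shoots and at most 3.53 in roots (interaction 5.34). UF3GT, an anthocyanin xylosyltransferase, gave 4.13 and PAP1, the MYB transcription factor that switches on this pathway, 3.89 (adjusted p = 1.82e-05 and 3.40e-05). PAP1 was at 8.11, 8.64 and 9.24 in WT shoots, 4.45, 5.65 and 4.21 in phr1 shoots and 3.06 to 3.40 in roots. The array of phr1 shoots numbered 2 was the highest of its group for DFR, AT4G14090, UF3GT and PAP1. From +Pi to −Pi these genes, in this order, changed in WT by 5.85, 5.30, 5.04 and 4.72 in shoots and by 0.13, −0.07, 0.03 and 0.09 in roots. For these genes a rise from +Pi to −Pi in WT was thus seen only in shoots. This rise shares the WT −Pi arrays with the interaction, and its part in the interaction was not tested. The other called members were CHIL (3.48), AT1G06000 (UGT89C1, 3.16), AT5MAT (3.07), UGT78D2 (2.71) and UGT78D1 (2.03). The member not called was MYB12, a flavonol regulator with a higher signal in roots than in shoots at +Pi, with an interaction of 0.69 (adjusted p = 0.20).

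Jasmonate genes showed the same direction. Of the 27 genes on the list only 5 were measured. All 5 were called above 0, against 6.18% of all probe sets, with a median of 3.71. By the 2-fold threshold 4 of the 5 were lower in phr1 shoots. Without the 40% dimmest probe sets 3 were called. JRG21, a jasmonate oxygenase that inactivates the hormone, had 8.79, 9.06 and 9.10 in WT shoots and 3.63, 5.06 and 3.49 in phr1 shoots, with 3.06 to 3.41 in roots (interaction 4.89, SE 0.412, adjusted p = 1.05e-07). JMT, which methylates jasmonate, was at 7.64, 6.80 and 7.80 against 3.78, 3.65 and 3.72 in shoots and at 2.89 to 3.12 in roots (interaction 3.71). VSP1, a vegetative storage protein, fell from 12.73, 12.23 and 12.59 to 7.50, 7.85 and 8.04 in shoots. Its root signal was scattered in both genotypes, 7.73, 4.70 and 6.64 in WT and 4.66, 4.98 and 6.62 in phr1, which leaves the interaction of 3.78 with an SE of 0.974 (adjusted p = 0.0084). OPCL1 (1.88) and ACX1 (1.15), 2 enzymes of jasmonate synthesis, had root differences of −0.08 and 0.31 between phr1 and WT, neither passing the test.

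Starch genes were split. Of 25 on the list 7 were measured, and 3 of these were called, all above 0 (median of the measured genes 0.91). BAM5, a beta-amylase, had the largest shoot difference of all named genes: 11.68, 10.97 and 11.73 in WT shoots against 3.25, 4.27 and 3.34 in phr1 shoots. In roots it was at 6.11, 5.62 and 5.49 in WT and 3.18, 3.11 and 3.44 in phr1, so that BAM5 was lower in phr1 in both organs, with differences of −7.84 in shoots and −2.50 in roots (interaction 5.34, SE 0.812, adjusted p = 8.52e-05). APL3 and APL4, large subunits of ADP-glucose pyrophosphorylase, the enzyme that commits glucose to starch, had interactions of 3.57 and 3.26. APL3 was at 9.99, 8.98 and 10.05 in WT shoots, 5.50, 6.05 and 5.46 in phr1 shoots and 4.29 to 4.91 in roots. The other members (DPE1, DPE2, SBE2.2 and CT-BMY) had interactions between 0.05 and 0.91 and were not called.

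**Figure D2:**
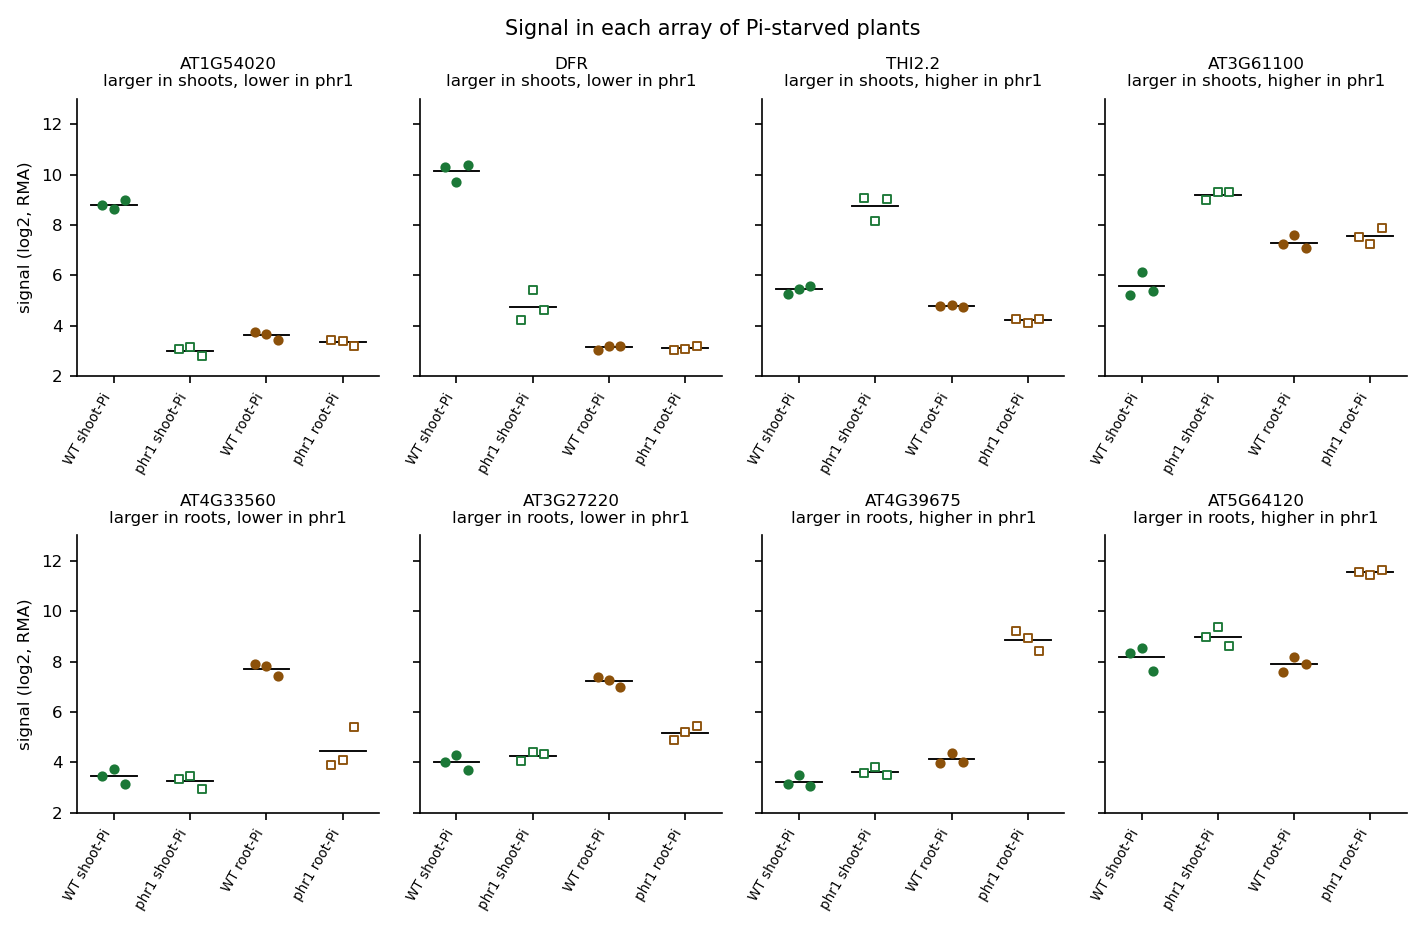
Signal (log2, RMA) of 8 named genes, 2 from each class, in the 12 arrays: filled circles are WT and open squares phr1, green shoots and brown roots, and bars are means of 3 arrays. In the organ of the larger difference the 3 phr1 arrays lie apart from the 3 WT arrays, and in the other organ the means differ by less than 1.

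Genes that were higher in phr1 shoots came next in number, with 152 of 1115 more than 4-fold in interaction, against 324 of the 1204 in the class above. THI2.2, a thionin, rose from 5.28, 5.47 and 5.59 in WT shoots to 9.09, 8.15 and 9.02 in phr1 shoots. In roots it was at 4.78, 4.82 and 4.77 in WT and 4.28, 4.12 and 4.28 in phr1 (interaction −3.87, SE 0.411, adjusted p = 1.70e-06). AT3G61100 was at 5.21, 6.15 and 5.4 in WT shoots, 9.01, 9.31 and 9.30 in phr1 shoots and between 7.07 and 7.90 in all root arrays, so that the root signal lay between those of the shoots of the 2 genotypes (interaction −3.36, adjusted p = 1.52e-07). AT2G04050, a MATE-type efflux carrier, had 4.43, 6.4 and 4.45 in WT shoots and 8.88, 9.52 and 9.28 in phr1 shoots, with 3.19 to 3.25 in WT roots and 3.92 to 4.48 in phr1 roots (interaction −3.23). AT5G51440, of the HSP20 chaperone family, was at 3.95, 4.19 and 3.51 in WT shoots and 6.02, 7.30 and 6.55 in phr1 shoots (interaction −3.44).

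For 3 genes of this class the phr1 shoot array numbered 2 stood apart. AT3G06070 had 7.88, 5.52 and 8.54 in phr1 shoots against 4.32, 4.04 and 2.95 in WT (interaction −3.76), AT5G62360, an invertase and pectin methylesterase inhibitor type protein, 9.5, 6.82 and 9.74 against 5.95, 4.44 and 5.03 (−3.51), and AT4G21870, of the HSP20 family, 10.64, 9.21 and 10.73 against 8.02, 7.25 and 7.03 (−2.97). In each this array was the lowest of its group, and every phr1 shoot value lay above every WT value. AT4G27450, of the aluminium-induced protein family, rose in phr1 shoots (7.41 to 7.63 against 5.06 to 6.01) and had lower values in phr1 roots (8.21, 8.2 and 8.35 against 9.63, 9.86 and 9.53), where the difference of −1.43 did not pass the test (adjusted p = 0.14); its interaction was −3.26 (SE 0.737, adjusted p = 0.0032).

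Among the lists, called members with an interaction below 0 were few. RR16, a type-A response regulator of cytokinin signalling, was at 3.36, 3.21 and 3.29 in WT shoots and 5.52, 4.91 and 5.6 in phr1 shoots, and at 2.55 to 2.89 in roots (interaction −2.02, adjusted p = 0.0071). DIN10, a gene induced by darkness and low sugar, was at 9.22, 8.46 and 6.80 in WT shoots and 11.36, 10.64 and 10.83 in phr1 shoots (interaction −2.38, adjusted p = 0.012), and here the WT array numbered 3 was the lowest. GLU1, the ferredoxin-dependent glutamate synthase that refixes photorespiratory ammonium, had an interaction of −1.26 (adjusted p = 0.0056), with 9.40, 8.71 and 9.53 in WT shoots and 10.66, 10.09 and 10.35 in phr1 shoots.

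In roots the larger effect of phr1 was mostly a rise. AT4G12500, a lipid transfer protein of the AZI/EARLI1 type, had the largest: 3.99, 5.46 and 4.75 in WT roots and 10.93, 11.27 and 11.41 in phr1 roots. In shoots it was at 8.38, 8.61 and 7.57 in WT and 9.65, 9.89 and 9.30 in phr1, a smaller rise (interaction 5.05, SE 0.655, adjusted p = 1.64e-05). AT4G12490, of the same protein family, went from 4.83, 5.29 and 4.65 to 10.29, 10.43 and 10.84 in roots and from 8.54, 10.06 and 7.44 to 10.72, 11.64 and 10.87 in shoots (interaction 3.20, SE 0.899, adjusted p = 0.015). These 2 genes are similar in sequence, and signal that their probe sets may share cannot be told apart; without both shoot arrays numbered 2 and the phr1 root array numbered 3 the call of AT4G12490 was lost.

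AT4G39675 rose in phr1 roots and differed by 0.38 in shoots, which did not pass the test. It was at 3.96, 4.39 and 4.01 in WT roots, 9.20, 8.95 and 8.43 in phr1 roots, 3.07 to 3.51 in WT shoots and 3.49 to 3.80 in phr1 shoots (interaction 4.36, SE 0.273, adjusted p = 2.35e-09). In WT roots at +Pi the same gene was at 9.68, 10.31 and 9.75, so that the phr1 roots without Pi were nearer to fed than to starved WT roots. AT1G68620, an alpha/beta hydrolase, was at 4.29, 4.31 and 4.33 in WT roots and 7.40, 7.53 and 8.09 in phr1 roots, while shoot values of the genotypes overlapped (interaction 4.03). AT5G64120, a class III peroxidase, rose from 7.58, 8.17 and 7.91 to 11.54, 11.43 and 11.64 in roots, against 0.81 in shoots (interaction 2.84, adjusted p = 2.02e-06). AT1G26380, an oxidase of the berberine bridge enzyme family, rose from 5.65, 6.02 and 5.81 to 9.16, 9.39 and 9.54 in roots (interaction 2.92). AT3G24510, a defensin-like protein gene, was at 3.06 to 3.43 in the other 9 arrays compared and in phr1 roots at 5.58, 6.18 and 6.73 (interaction 2.79, SE 0.252, adjusted p = 2.63e-07). In the roots labelled phr1 phl1 AT3G24510 differed from WT by 0.16, and AT4G39675, AT1G68620 and AT5G64120 by 6.74, 4.47 and 3.32. The summed light reaction signal was higher in the roots labelled phr1 phl1 (10.5 to 11.2) than in the other 6 root arrays at −Pi, and its part in these values was not tested.

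The class lower in phr1 roots was the smallest. Most of its leading named genes had low signals in shoots, but ICL and ATSPS4F did not, with WT shoot means of 6.45 and 8.84. Of the 61 probe sets, 18 (29.5%) had mean signals within the lowest 25% of WT shoots (under 3.6) in both WT and phr1 shoots, against 22.5% of all probe sets. AT4G33560, of the wound-responsive protein family, was at 7.90, 7.84 and 7.41 in WT roots, 3.91, 4.08 and 5.41 in phr1 roots and 2.94 to 3.73 in shoots (interaction −3.06, SE 0.730, adjusted p = 0.0049). AT3G27220, with Kelch repeats, was at 7.38, 7.26 and 7.00 against 4.89, 5.19 and 5.43 in roots and 3.70 to 4.43 in shoots (−2.30). AT3G32030, a terpenoid synthase, was at 6.76, 6.21 and 6.86 against 4.30, 4.18 and 3.36 (−2.56), and AT2G17850, a rhodanese-type protein, at 5.51, 5.59 and 4.99 against 3.10, 3.28 and 3.39 (−2.18). All WT root values of these 4 genes lay above all phr1 root values, and the shoots of the genotypes differed by at most 0.26 on average.

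Other genes of this class rested on uneven arrays. AT4G33720, a PR-1-type secreted protein, had 8.27, 5.51 and 8.26 in WT roots and 4.04, 4.06 and 3.90 in phr1 roots; the WT array numbered 2 was far under the others, and the interaction of −3.80 (SE 0.977, adjusted p = 0.00825) was not called without both shoot arrays numbered 2 and the phr1 root array numbered 3. AT5G48570, an FKBP-type peptidyl-prolyl isomerase, had 7.05, 6.77 and 6.93 against 4.50, 5.15 and 4.24 in roots and was at the edge of the threshold (interaction −2.37, adjusted p = 0.047), with the call lost with most single arrays left out. ICL, isocitrate lyase of the glyoxylate cycle, had a root difference of −1.59 that did not pass the test (5.6, 5.39 and 6.57 in phr1 against 7.09, 8.03 and 7.21 in WT, adjusted p = 0.084) and was higher in phr1 shoots (8.36, 7.41 and 8.02 against 6.58, 6.2 and 6.57, a difference of 1.48 with adjusted p = 0.032), which gives an interaction of −3.07 (adjusted p = 0.0045). ICL in the arrays with the phr1 phl1 label differed from WT by 3.04 in shoots and 2.42 in roots. ATSPS4F, a sucrose phosphate synthase, is described below with genes that Pi starvation induced in both organs.

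Opposite effects in the 2 organs, each past the threshold for its own organ, were rare. They were found for 15 of the 2582 called probe sets (22746 tested), and all 15 were lower in phr1 shoots and higher in phr1 roots. Another 62 called probe sets passed in both organs with the same sign. MGL, methionine gamma-lyase, had the largest interaction of the named ones: 8.78, 9.07 and 9.02 in WT shoots and 4.66, 5.39 and 4.73 in phr1 shoots, but 4.33, 4.69 and 4.19 in WT roots and 6.2, 5.85 and 5.34 in phr1 roots (interaction 5.43, SE 0.325, adjusted p = 1.16e-09). All WT shoot values of MGL lay above all WT root values, whereas in phr1 the ranges of the organs overlapped, with the higher mean in roots. MES9, a methylesterase that can release salicylate from its methyl ester, fell by 2.57 in shoots and rose by 1.22 in roots (interaction 3.78), and AT4G11190, a dirigent-like protein, fell by 1.08 and rose by 2.21 (3.29). AT5G64110, a class III peroxidase, fell by 1.79 in shoots and was at 5.42, 5.86 and 6.66 in phr1 roots against 4.72, 4.55 and 4.46 in WT roots (3.20). AT5G66650, of the mitochondrial calcium uniporter family, and UMAMIT11, of a family of amino acid exporters, had interactions of 2.66 and 2.61. UMAMIT11 was at 6.09, 6.60 and 6.25 against 5.03, 4.44 and 4.78 in shoots and at 6.35, 6.4 and 6.25 against 7.35, 7.49 and 7.31 in roots, with differences of −1.56 and 1.05.

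Some called genes were induced by Pi starvation in both organs of WT. OCT1 was on the planned list of genes to name, drawn up with earlier results of these data known. The others were picked after their values were seen, as the called genes with the largest interactions among those induced in both organs. All share the WT −Pi arrays with the interaction, so their values are set side by side without a count. AT5G17340 was at 3.18 to 3.34 in all WT arrays at +Pi. It was at 10.70, 10.98 and 10.47 in WT shoots and 10.21, 9.95 and 10.17 in WT roots at −Pi, and in phr1 it was at 4.54, 5.05 and 4.2 in shoots but at 8.13, 8.23 and 8.54 in roots. The phr1 minus WT difference was −6.12 in shoots and −1.81 in roots (interaction 4.31, SE 0.233, adjusted p = 2.76e-10). The differences from WT of the arrays labelled phr1 phl1 were −7.33 and −6.50, and the interaction computed with them was 0.83, with the same WT arrays.

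OCT1, an organic cation and carnitine transporter, was likewise lowest in phr1 shoots and next in phr1 roots, but in WT it was higher in roots than in shoots. At −Pi it was at 9.81, 10.06 and 10.18 in WT shoots, 5.64, 6.48 and 4.97 in phr1 shoots, 11.29, 11.46 and 11.31 in WT roots and 9.5, 9.53 and 9.03 in phr1 roots. At +Pi it lay between 3.21 and 3.46 in WT, so that OCT1 in phr1 roots remained far above fed WT roots. The interaction was 2.32 (SE 0.356, adjusted p = 9.10e-05), and computed with the arrays labelled phr1 phl1 it was −1.49, with differences from WT of −6.49 in shoots and −7.98 in roots.

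In roots the other genes of this kind ranged from a phr1 signal at the fed level to one that did not pass as different from WT. AT3G21620, of the ERD4 family of membrane proteins, was at 8.27, 7.80 and 8.74 in WT shoots and 5.37, 5.29 and 5.1 in WT roots, and in phr1 at 3.28, 3.40 and 3.13 in shoots and 3.53, 3.48 and 3.56 in roots, where fed WT roots had 3.56 to 3.73. Here the interaction of 3.28 (adjusted p = 6.27e-09) goes with an induction in WT of 5.16 in shoots and 1.62 in roots. AT1G52800, a 2-oxoglutarate-dependent oxygenase, was induced by 3.76 in shoots and 1.5 in roots and differed in phr1 by −3.73 and −1.0. AT2G34810, an oxidase of the berberine bridge enzyme family, was induced by 5.07 and 2.72 and differed in phr1 by −5.11 and −1.38 (interaction 3.73). By contrast EULS3, a lectin, was at 7.44, 7.25 and 7.33 in WT roots and 7.72, 7.72 and 7.99 in phr1 roots, with 5.06 to 6.30 in fed WT roots, while in shoots it fell from 8.86, 8.68 and 8.74 to 6.23, 6.74 and 6.19 (interaction 2.85, adjusted p = 5.63e-06). All its phr1 root values lay above those of WT, and this difference of 0.47 did not pass the test (adjusted p = 0.38). AT1G12845 (interaction 3.03) and AT1G19210, an AP2/ERF transcription factor (2.96), likewise had a root difference that did not pass the test, with shoot differences of −2.84 and −2.13. AT5G17350, which lies next to AT5G17340 in the genome annotation, had an interaction of 2.84 (SE 0.897, adjusted p = 0.029) with scattered phr1 shoot values of 5.13, 6.87 and 4.01, and its call was lost with several single arrays left out.

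Among the called genes induced in both organs, 4 with the larger phr1 difference in roots were taken. ATSPS4F was at 7.16, 7.21 and 7.41 in WT roots and 4.48, 4.59 and 3.98 in phr1 roots, with 3.63 to 3.76 in fed WT roots. In shoots its values overlapped, 9.35, 7.71 and 9.47 in WT and 8.67, 7.26 and 8.67 in phr1, and the arrays numbered 2 were low in both genotypes (interaction −2.27, SE 0.581, adjusted p = 0.0081). AT2G23960, a glutamine amidotransferase-like protein, fell by 2.12 in roots and 0.94 in shoots (interaction −1.17, adjusted p = 0.0029). AT2G22880, a VQ motif protein, and AT3G26510, with a PB1 domain, were higher in phr1 roots by 1.32 and 0.97 (interactions 1.81 and 1.5).

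**Figure D3:**
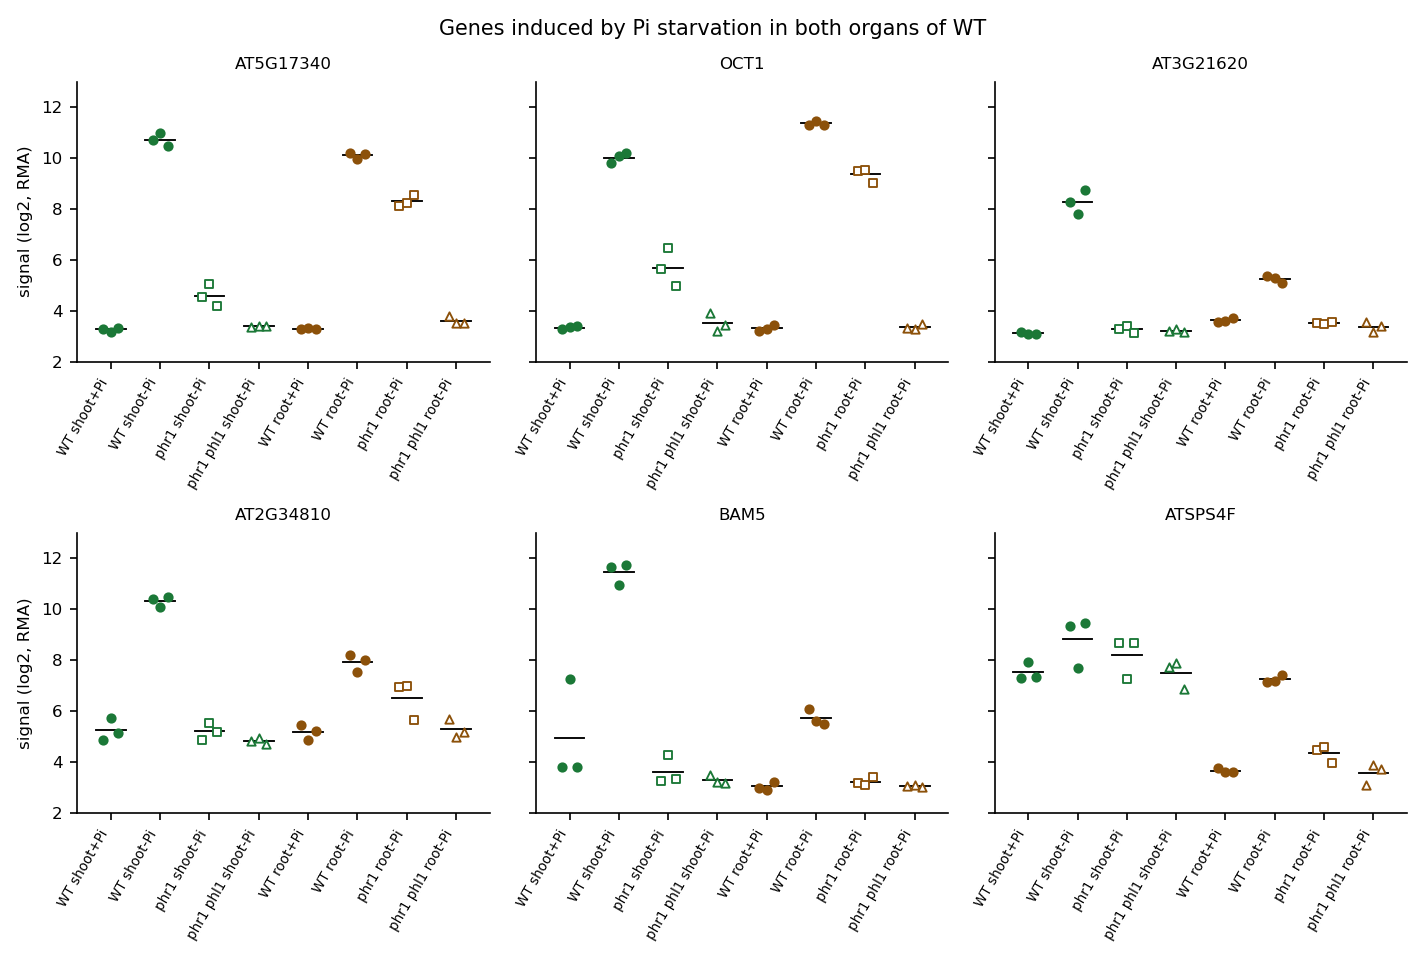
Signal (log2, RMA) of 6 genes in the 24 arrays by group: filled circles WT, open squares phr1, open triangles the arrays labelled phr1 phl1, green shoots and brown roots, and bars are means of 3 arrays. AT5G17340 and OCT1 stay above 8 in phr1 roots and fall below 7 in phr1 shoots, AT3G21620 falls to the fed level in both organs, and ATSPS4F falls in roots with overlapping values in shoots.

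Few of the classical Pi starvation genes were matched to a probe set: 2 of 19 in the list of Pi transport and SPX proteins, 3 of 22 for membrane lipid remodelling and 2 of 17 for scavenging phosphatases and nucleases. Of these 7, 1 was called. SPX1, whose protein inhibits PHR1, was at 11.49, 10.58 and 11.61 in WT shoots, 10.21, 9.36 and 10.13 in phr1 shoots, 11.72, 11.69 and 11.72 in WT roots and 11.13, 11.11 and 10.56 in phr1 roots. All phr1 values lay under all WT values of the same organ. The difference was past the threshold in shoots (−1.33) and not in roots (−0.77, adjusted p = 0.17), and its interaction of 0.55 did not pass the test (SE 0.419, adjusted p = 0.41). MGD2, a synthase of galactolipids that replace phospholipids, was lower in phr1 in both organs, with differences of −2.71 in shoots and −2.44 in roots and an interaction of 0.27 (adjusted p = 0.51). AT1G63010 (PHT5;1), the vacuolar Pi transporter, was called with an interaction of 1.02 (SE 0.180, adjusted p = 0.0004), just past the threshold: it was at 9.39, 9.41 and 9.48 against 7.74, 8.0 and 7.51 in shoots and at 9.39, 9.39 and 9.20 against 8.74, 8.57 and 8.70 in roots. The call was lost with quantile normalization within each organ and with some single arrays left out. RNS2, a ribonuclease, had an interaction of 0.91 that passed on adjusted p (0.0027) but not on fold, and PAP26, a purple acid phosphatase, one of 0.35. ZAT6, a zinc finger factor linked to the Pi starvation response, was called (2.91, SE 0.551, adjusted p = 0.0007), with 7.29, 7.93 and 7.93 against 5.02, 5.95 and 4.77 in shoots and overlapping values of 6.83 to 7.33 and 7.01 to 7.96 in roots. The other factors of that list, WRKY75, WRKY42 and WRKY6, were between −0.07 and 0.30 and not called, as were all 10 measured MYB-CC genes, PHL1 among them at 0.01.

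The remaining lists held at most 2 called genes each. COR15A, a chloroplast protein of cold and drought, had 10.27, 9.95 and 10.05 in WT shoots and 6.53, 7.10 and 7.50 in phr1 shoots with 3.35 to 4.16 in roots (2.82). CCR2, a cinnamoyl-CoA reductase, gave 2.37, TPS5, a trehalose phosphate synthase family member, 1.5, PPDK, pyruvate phosphate dikinase, 1.63, and UGT74B1, of glucosinolate synthesis, 1.38. ACD1, the pheophorbide a oxygenase of chlorophyll breakdown, and ATG8H, of autophagy, gave 1.73 and 1.72, the 2 called among 16 measured genes of senescence, autophagy and chlorophyll breakdown. PSBW, of photosystem II, was the 1 called among 8 light reaction genes (1.16, adjusted p = 0.018), with 6.71, 6.39 and 6.93 in phr1 roots against 6.13, 5.49 and 5.69 in WT roots, and its call was lost without the WT root array numbered 2 or the phr1 root array numbered 3. None was called among 3 Calvin cycle, 11 tetrapyrrole, 3 iron and 3 lipid remodelling genes, and the 3 reference genes (PEX4, AT4G34270 and AT2G28390) had interactions between −0.28 and 0.28. Among the lists of at least 3 measured genes, the median interaction was above 1 for flavonoid and anthocyanin genes, jasmonate genes and glucosinolate genes (1.08, with 1 of 3 called).

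**Figure D4:**
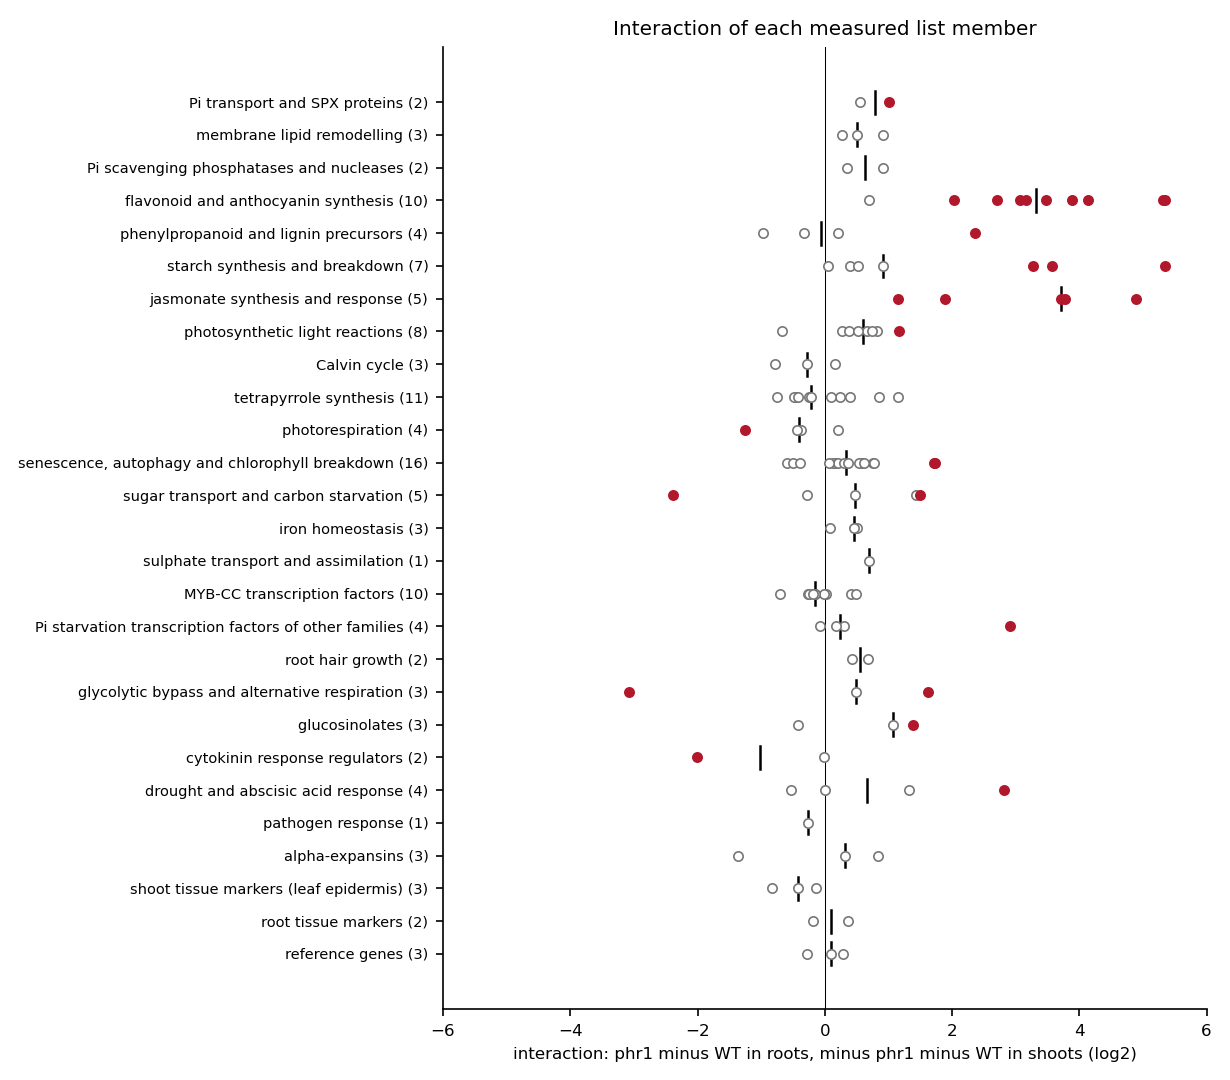
Each circle is a measured gene of a list (number measured in brackets), placed by its interaction (log2, above 0 for genes lower in phr1 shoots or higher in phr1 roots); red circles were called and vertical bars are list medians. Flavonoid and anthocyanin genes (median 3.32) and jasmonate genes (median 3.71) lie to the right of the other lists, and ICL at −3.07 is the gene farthest to the left.

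Gene families named by a shared symbol were counted in the same way, over all 35 families with at least 8 probe sets. Of these, 8 had 3 or more called: UGT, SWEET, CYP, SCPL, GH, GSTU, PRA and PUB. Only UGT and SWEET are described, and they were picked after the counts were seen. The UGT family, glycosyltransferases that attach sugars to flavonoids, hormones and other small molecules, had 11 of 47 called above 0 and 2 below 0. Over all probe sets the shares were 6.18% and 5.17%. UGT78D1, UGT78D2 and UGT74B1 are among the 11 and were counted in the lists above as well. UGT76E12 (4.48), UGT78D2 (2.71) and UGT78D1 (2.03) were lower in phr1 shoots, UGT84A1 (2.55), which acts on hydroxycinnamates, was higher in phr1 roots by 2.26, and UGT76C2 (−1.58), which glucosylates cytokinins, was higher in phr1 shoots. The SWEET family of sugar exporters had 5 of 14 above 0 and 1 below 0. SWEET13 (3.86), SWEET4 (2.14), SWEET10 (1.82), SWEET16 (1.56) and SWEET17 (1.06) were lower in phr1 shoots, by between 1.02 and 4.09, and differed in roots by at most 0.25, while SWEET14 was lower in phr1 roots by 1.57 (interaction −1.21). Probe sets of close family members may share signal. Of the 69 chloroplast-encoded transcripts, 1 was called above and 2 below 0; 9 of them were higher in phr1 shoots and 6 in phr1 roots by the same threshold, with medians over all 69 of 0.59 and 0.84. Of the 23 mitochondrion-encoded transcripts, 1 was called above 0 and none below, and 11 were higher in phr1 in each organ (medians 0.75 and 0.80), against medians of 0.02 and −0.03 over all probe sets.

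Neighbouring genes were counted as pairs. Among 6638 pairs of genes next to each other in the annotation (TAIR10.1) and both matched to a probe set, at least 1 was in the class lower in phr1 shoots in 592 pairs and both in 24. The same numbers were 680 and 16 for the class higher in phr1 shoots, 104 and 3 for that higher in phr1 roots and 39 and 1 for that lower in phr1 roots, and whether these pairs exceed those of genes placed at random was not tested. COR15A and its neighbour AT2G42530 (COR15B) had interactions of 2.82 and 2.09, SWEET13 (AT5G50800) and SWEET10 (AT5G50790) 3.86 and 1.82, and AT4G15680, AT4G15690 and AT4G15700, 3 adjacent glutaredoxin genes higher in phr1 shoots, −1.83, −1.30 and −1.81. AT1G26410 and AT1G26420, oxidases of the berberine bridge enzyme family, were both higher in phr1 roots (2.66 and 2.60). Many such neighbours are similar in sequence, and signal shared between their probe sets cannot be told apart.

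The organ of higher signal in fed plants was read from the WT arrays at +Pi. Their signals do not enter the interaction, apart from the shared estimate of spread. Over all probe sets 11.6% were higher in roots and 11.7% higher in shoots by the same threshold. Of the 61 probe sets lower in phr1 roots, 33 (54.1%) were higher in roots and 4 (6.56%) higher in shoots. Of the 1115 that were higher in phr1 shoots, 340 (30.5%) were higher in shoots and 129 (11.6%) higher in roots. In the class lower in phr1 shoots, 326 of 1204 (27.1%) were higher in roots and 241 (20%) higher in shoots at +Pi. The 202 probe sets higher in phr1 roots were split, with 65 (32.2%) higher in roots and 49 (24.3%) in shoots. A probe set can be called lower in phr1 in an organ only where WT has signal for it there. All probe sets include many with low signal, so their shares are not an even background for the classes. What the organ shares owe to this was not tested. Called probe sets also differed from all probe sets in level: 67.8% of the class higher in phr1 shoots and 51.9% of that lower in phr1 shoots were above the median signal in both organs at +Pi, against 42.8% of all probe sets, 39.1% of the class higher and 18.0% of the class lower in phr1 roots.

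**Figure D5:**
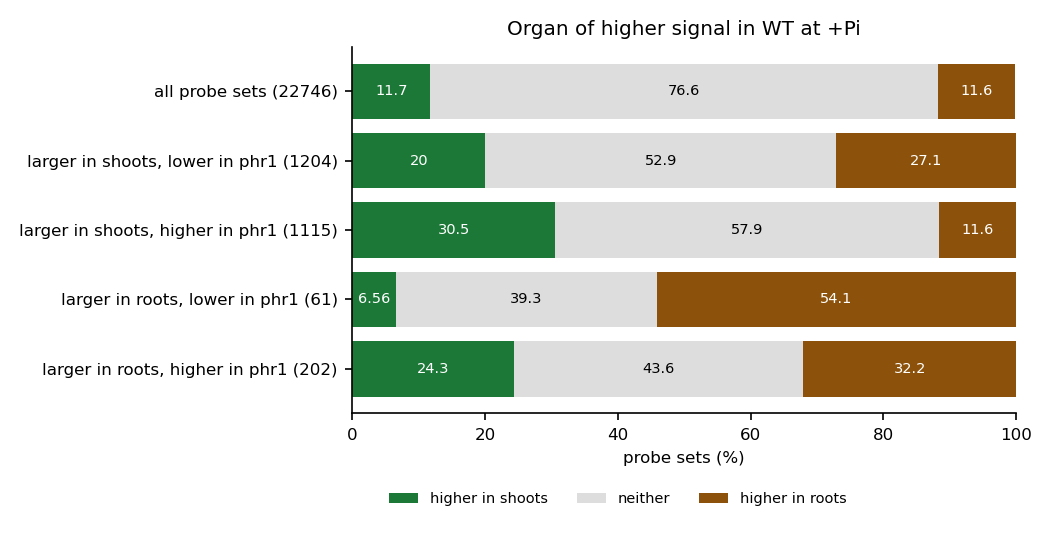
Share of probe sets (%) with a higher signal in shoots, in roots or in neither in WT at +Pi (more than 2-fold and adjusted p under 0.05), for all probe sets and for each class of called probe sets (number in brackets). The share higher in roots is 54.1% in the class lower in phr1 roots, and the share higher in shoots is 30.5% in the class higher in phr1 shoots.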

How the data were processed

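RNA of 24 samples was measured on ATH1 arrays, and the 12 arrays of WT and phr1 at −Pi were compared. Deposited values are log2 signals per probe set, for which the authors used RMA (background correction, normalization over arrays and summary of probes); no version was given in the sources used here. Samples were grouped by their titles. After 64 control probe sets were left out, a linear model with 8 group means was fitted to 22746 probe sets with limma 3.58.1 in R 4.3.3, and the interaction and each organ's difference were tested with the moderated statistic and Benjamini-Hochberg adjustment over all probe sets. The number of arrays, 3 a group, limits the precision. On simulated data 73 of 100 probe sets with an interaction of 1.5 (log2) and 99 of 100 with one of 3 were called, with 1 false call. The simulated noise was independent between arrays and had the same spread in every group. Deviations of whole arrays and the lower correlation between shoot arrays were not simulated, so these rates may not hold for the real arrays. Lists give counts and medians with no set test. The authors' own comparison tables were used for no value.

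Of the probe sets, 14160 were matched to 1 gene, 647 of these through loci in the study's probe tables and the others through the platform annotation, with RefSeq names; 503 were matched to several genes and 8083 to none. Named genes are, per class, the 8 called probe sets with the largest interaction whose arrays do not overlap in the organ of the larger difference. To these come up to 4 called members of each of 28 lists (27 with a measured member) and any of the other direction. Genes of the paper's accession section, OCT1, which was chosen by name, and up to 6 genes with opposite effects are also named. Other genes induced in both organs, other family and neighbour genes and list members without a call were added after values were seen. The members, lists and rules were chosen with earlier results of these data known. Alternatives were other samples, blocks, filters, scalings, variances, weights, thresholds and each array left out. No promoter sequences were used here.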

Additional observations from a re-analysis of the deposited data

Results flagged for a closer look

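The interaction tests whether the effect of phr1 differs between roots and shoots, and it was called for 2582 probe sets. All called genes named in the report differed between the organs by this test and their values are not repeated. The 15 probe sets called in opposite directions in the 2 organs were picked out, because in them the organs differ in sign and not only in size. They were fewer than the 62 called in both organs with the same sign. Of these, MGL had an interaction of 5.43, MES9 of 3.78, AT4G11190 of 3.29, AT5G64110 of 3.20, AT5G66650 of 2.66 and UMAMIT11 of 2.61. Groups of 3 arrays are too small for a test of single outlying arrays.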

How the results depend on the processing

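Leaving out each array in turn gave 2342 to 3060 called probe sets (main value 2582), 1230 to 1652 above 0 and 1081 to 1408 below 0; the classes ran from 1048 to 1412 (lower in phr1 shoots), 1022 to 1346 (higher in phr1 shoots), 51 to 76 (lower in phr1 roots) and 182 to 240 (higher in phr1 roots). With 1 probe set per gene, which tests fewer features, 1379 were called, 682 above and 697 below 0, and the classes in that order held 583, 660, 37 and 99. On adjusted p alone the numbers were 4471, 2172 and 2299, with 1848, 2108, 191 and 324 in the classes. With more than 1.5-fold and adjusted p under 0.1 they were 4931, 2467 and 2464, with 2053, 2255, 209 and 414. With more than 4-fold they were 540, 378 and 162, with 324, 152, 10 and 54. With the 40% dimmest probe sets left out, 32 were lower in phr1 roots, and the called flavonoid and jasmonate genes went from 9 to 5 and from 5 to 3; that setting tests fewer probe sets. Other settings kept each of these counts within 1.5 times of its value, among them both shoot arrays numbered 2 left out (2910 called) and these with the phr1 root array numbered 3 (2898), both chosen after the data were seen.

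Replicate numbers were not used as pairs: same-numbered arrays of WT shoots, phr1 shoots and WT roots deviated together (r between 0.10 and 0.65 for every number), those of phr1 roots did so for number 1 (0.19 to 0.28) but not for numbers 2 and 3 (−0.32 to −0.55), and 6 of 12 arrays correlated best with their own number. With the number as a block 2579 were called, and with a block within each organ 2587.

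Of 69 named called genes, 63 stayed called in every setting that tested them, apart from the 4-fold one. Settings with a filter left some named genes untested, and this was not counted as a lost call. AT5G48570 lost its call with most and AT5G17350 with several single arrays left out, AT1G63010 and PSBW with some, and AT4G12490 and AT4G33720 with 3 arrays left out. PHL1, not called at 0.01, changed sign to −0.017 with quantile normalization within each organ and ran from −0.25 to 0.33 with single arrays left out. The planned search for P1BS was not run, as promoter sequences were not used here. On simulated data, with the limits given above, 73 of 100 interactions of 1.5 (log2) were called, so that part of the interactions of this size would be missed with 3 arrays a group.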
